A study of Mus musculus with 56 samples.

Results

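Annexins and S100 proteins are 2 families of calcium-binding proteins, and 10 of their genes (Anxa1, Anxa2, Anxa3, Anxa5, S100a4, S100a6, S100a8, S100a9, S100a10 and S100a11) were followed here in each of 14 mouse livers. They were taken by gene symbol from an RNA-seq table of 21888 symbols, and all 10 had a mean of at least 1 FPKM over the livers, as did 11354 genes in all. FPKM, fragments scaled to transcript length and library size, is a level per length, so that genes of different length can be set side by side. The study removed miR-122, the most abundant microRNA of hepatocytes, from the adult liver and followed what happened to other RNAs.

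All mice were labelled with the 129Sv/J strain background. In 11 of them loxP sites flank the miR-122 precursor. Of these, 3 were uninjected (day 0). The others received, by tail vein, an rAAV8 vector in which the Ef1a promoter, which is not specific to hepatocytes, drives the Cre recombinase, and 3 were sampled on day 21, 3 on day 45, 1 on day 100 and 1 on day 200. The last 2 livers were joined into 1 late group. The remaining 3 mice carried a germline miR-122 knockout and received no vector. Ages and sexes are not given in the sources used here, and the day 0 livers saw neither vector nor Cre, so that vector, time and loss of miR-122 cannot be told apart in the floxed mice. In the small RNA libraries with the same day and replicate labels, miR-122 made up 66.4% ± 7.06 (SD, n = 3) of microRNA reads at day 0, 11.3% ± 2.70 (SD, n = 3) at day 21 and 0.839% ± 0.426 (SD, n = 3) at day 45. Whether these libraries come from the same mice as the RNA-seq libraries is not stated in the labels. The share of miR-122 was 4.46% in the small RNA library of day 100 and 19.1% in that of day 200, so the late days were not those with the least miR-122. No small RNA library of a knockout liver was analysed here.

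Annexins bind acidic phospholipids in the presence of calcium and sit on the inner face of membranes, at sites of vesicle traffic and membrane repair. S100 proteins are small EF-hand proteins that mostly act as dimers and change the activity of a partner, and several annexins are such partners: S100a10 binds Anxa2 in a heterotetramer at the cell surface, and S100a11 binds Anxa1. S100a8 and S100a9 form calprotectin, which is abundant in neutrophils and monocytes. In the liver, many genes of both families are known to be low in hepatocytes and higher in biliary, stromal and immune cells.

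The summed level of 10 hepatocyte markers lay between 15007 and 32556 FPKM in every liver. Alb was listed at 0 in every liver, and Serpina1a in every liver of days 0, 21 and 45, which can be a failed estimate for a very abundant RNA. None of the 10 annexin and S100 genes was listed at 0 in any liver. Knockout replicate C stood apart from the other 2 knockout livers: without it, 7088 in place of 3833 of all tested genes were called between knockout and day 0. Without it the same number of the 10 genes, 8, were called higher than day 0, with log2 fold changes of 3.51 for Anxa2, 1.27 for Anxa3, 1.85 for Anxa5, 3.10 for S100a4, 2.76 for S100a6, 3.89 for S100a8, 3.25 for S100a9 and 3.49 for S100a11. Low values placed the effective depth of the libraries, relative to day 0 replicate A, between 0.643 and 1.00 for the floxed livers and between 0.428 and 0.524 for the knockout livers.

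The genes lie in a few places of the genome (coordinates of the deposited table, mm9). S100a4 (chr3:90407691-90409967), S100a6 (chr3:90416815-90418336), S100a8 (chr3:90472992-90473956) and S100a9 (chr3:90496554-90499613) belong to the large S100 cluster of chromosome 3. S100a11 (chr3:93324417-93330210) and S100a10 (chr3:93359038-93368567) form a pair on the same chromosome, 28.8 kb from each other. The annexin genes are scattered, with Anxa1 at chr19:20447923-20465161, Anxa2 at chr9:69301489-69339592, Anxa3 at chr5:97222403-97274987 and Anxa5 at chr3:36347845-36374809. The row of Anxa2 spans that of the microRNA Mir3109, and the rows of the other 9 genes overlap no other row of the table.

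Promoter sequences of 8 of the 10 genes were available from RefSeq (GRCm38.p6, 300 bases from 250 before the start); those of Anxa3 and S100a10 were not matched. The promoters were read for 4 short motifs on both strands: TATAAA (the TATA box), TGANTCA (the site of AP-1 factors), CCAAT and GGAATG (the core of TEAD sites). TATAAA was found in 5 of the 8 (S100a4, S100a8, S100a9, Anxa1 and Anxa2) and in 13.6% of all 32851 promoters. TGANTCA was found in 2 of the 8, S100a11 and Anxa2, and in 7.81% of all promoters. CCAAT was found in S100a6 alone among the 8 (37.4% of all promoters), GGAATG in Anxa1 alone (14.7%), and the Anxa5 promoter held none of the 4. The 5 promoters below are those of the S100 genes with a TATAAA match and of the 2 genes with TGANTCA. They are shown 5′ to 3′ on the strand of the gene with the matches in capitals: S100a4 is at chr3:90603520-90603819 (+ strand), S100a8 at chr3:90668821-90669120 (+ strand), S100a9 at chr3:90695672-90695971 (- strand), S100a11 at chr3:93520246-93520545 (+ strand) and Anxa2 at chr9:69453433-69453732 (+ strand).
S100a4: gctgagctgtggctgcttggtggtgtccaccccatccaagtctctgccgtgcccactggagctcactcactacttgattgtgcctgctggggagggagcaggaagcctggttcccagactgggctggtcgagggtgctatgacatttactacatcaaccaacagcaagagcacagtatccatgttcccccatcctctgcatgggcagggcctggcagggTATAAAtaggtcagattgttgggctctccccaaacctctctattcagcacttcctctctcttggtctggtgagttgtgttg
S100a8: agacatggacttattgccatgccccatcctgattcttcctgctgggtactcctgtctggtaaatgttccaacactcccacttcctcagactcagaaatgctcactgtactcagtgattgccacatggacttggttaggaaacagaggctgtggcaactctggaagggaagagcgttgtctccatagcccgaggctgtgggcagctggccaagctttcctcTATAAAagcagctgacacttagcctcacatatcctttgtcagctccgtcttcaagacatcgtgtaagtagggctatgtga
S100a9: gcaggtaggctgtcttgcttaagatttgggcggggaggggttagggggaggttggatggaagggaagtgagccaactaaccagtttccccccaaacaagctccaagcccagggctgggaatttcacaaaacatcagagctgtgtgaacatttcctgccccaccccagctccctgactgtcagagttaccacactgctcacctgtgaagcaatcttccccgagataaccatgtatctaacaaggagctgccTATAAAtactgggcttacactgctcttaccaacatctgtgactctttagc
S100a11: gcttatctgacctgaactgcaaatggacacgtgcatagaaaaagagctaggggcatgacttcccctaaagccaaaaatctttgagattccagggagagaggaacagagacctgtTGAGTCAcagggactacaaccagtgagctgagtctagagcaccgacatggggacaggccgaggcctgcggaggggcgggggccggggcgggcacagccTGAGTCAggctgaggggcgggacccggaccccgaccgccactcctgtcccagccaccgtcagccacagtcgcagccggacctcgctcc
Anxa2: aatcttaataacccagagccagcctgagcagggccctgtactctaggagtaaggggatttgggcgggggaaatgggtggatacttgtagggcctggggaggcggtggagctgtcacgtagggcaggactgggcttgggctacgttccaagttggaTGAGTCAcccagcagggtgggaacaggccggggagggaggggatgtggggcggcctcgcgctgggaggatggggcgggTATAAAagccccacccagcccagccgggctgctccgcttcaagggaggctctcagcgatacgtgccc
Counted from the annotated start, TATAAA began at -31 in S100a4, at -30 in S100a8, at 1 (the annotated start itself) in S100a9 and at -17 in Anxa2. TGAGTCA began at -136 and at -38 in S100a11 and at -95 in Anxa2. A match is a run of letters and was tested neither for binding nor for a part in the levels of these genes.

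S100a10 was the most abundant of the 10 genes at day 0 and was called in no comparison. Its level was 272, 175 and 213 FPKM in the 3 livers of day 0, 148, 116 and 158 FPKM at day 21, and 272, 276 and 186 FPKM at day 45. It was 314 FPKM at day 100, 248 FPKM at day 200, and 216, 223 and 242 FPKM in the knockout livers. All livers of day 21 were below all those of day 0, and every other group overlapped day 0. The log2 fold change, here and below on the log2(FPKM + 1) scale, was -0.63 ± 0.21 (SE) at day 21 with an adjusted p of 0.0956, and 0.15 ± 0.21 at day 45 with an adjusted p of 0.671 (limma over all tested genes, Benjamini-Hochberg adjustment). The 95% interval at day 45 ran from -0.31 to 0.61.

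Anxa2, the annexin partner of S100a10, had the largest log2 fold change of the 4 annexins at day 45, in the late group and in the knockout. It was at 14.5, 12.5 and 16.7 FPKM at day 0, at 27.6, 24.4 and 33.3 FPKM at day 21, and at 49.1, 108 and 66.5 FPKM at day 45. It reached 247 FPKM at day 100 and 181 FPKM at day 200, and was at 157, 197 and 64.9 FPKM in the knockout livers. No liver of a later group or of the knockout overlapped those of day 0. The change from day 0 was 2.21 ± 0.37 (SE) on the log2 scale at day 45 (adjusted p = 0.0014), 3.78 ± 0.41 in the late group (adjusted p = 0.0001) and 3.04 ± 0.37 in the knockout (adjusted p = 0.000192). At day 21 the value of 0.92 ± 0.37 did not pass (adjusted p = 0.163).

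The ratio of Anxa2 to S100a10 within a liver was 0.0677 ± 0.013 (SD, n = 3) at day 0, 0.203 ± 0.0143 (SD, n = 3) at day 21, 0.31 ± 0.113 (SD, n = 3) at day 45 and 0.626 ± 0.32 (SD, n = 3) in the knockout, with 0.788 at day 100 and 0.728 at day 200. The knockout mean was 0.804 without replicate C. In each of the 3 groups of 3 the ratio lay above day 0 in all livers. An exact two-sided permutation test gave p = 0.1 for each, which is the smallest value that 3 livers against 3 allow, and 0.18 after adjustment over the 9 tests of ratios. The ratio compares levels of RNA per length, not of protein.

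**Figure D1:**
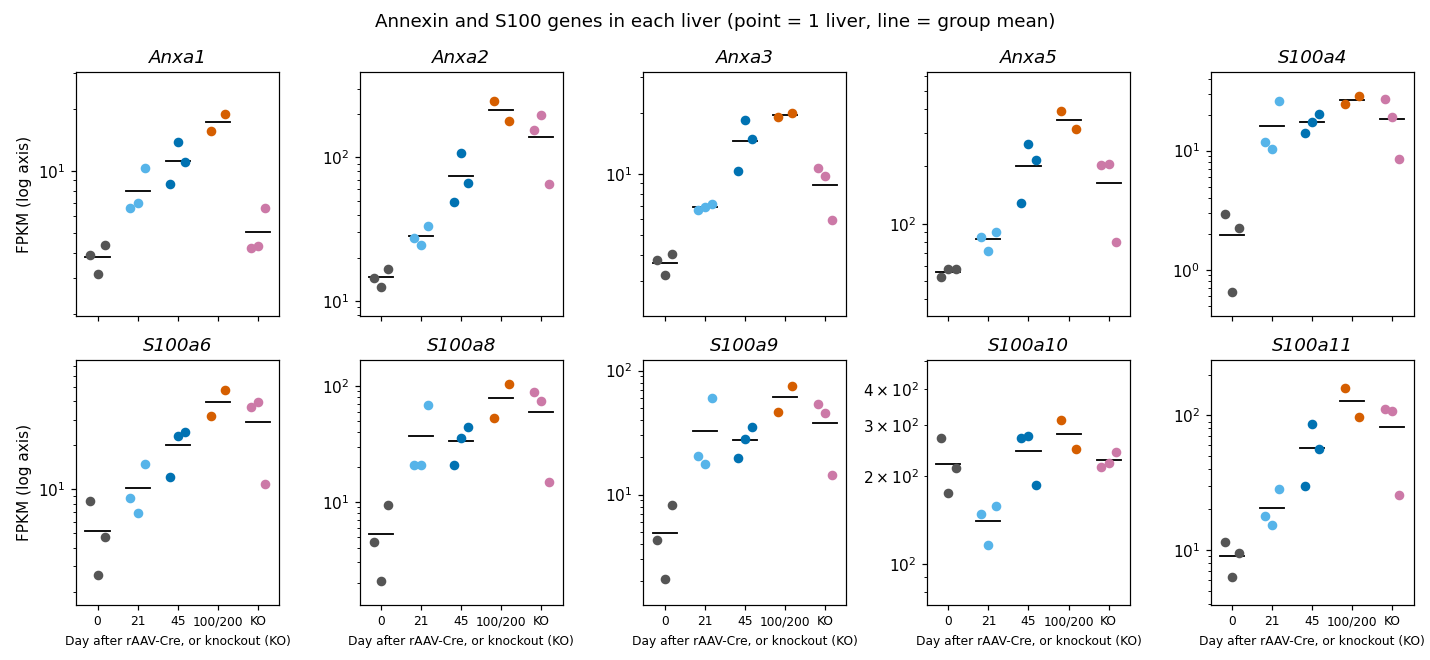
FPKM (log axis) of the 10 genes in each liver, by day after rAAV-Cre or in the germline knockout (KO); each point is 1 liver and each line a group mean. For 9 genes the 2 late livers lie above all those of day 0, as they do for 52.9% of all tested genes, and S100a10 stays between 116 and 314 FPKM throughout.

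Anxa1, which binds formyl peptide receptors and is known for limiting the recruitment of neutrophils, was called higher in the floxed livers after Cre but not in the knockout. Its level was 3.88, 3.14 and 4.37 FPKM at day 0, 6.60, 7.01 and 10.3 FPKM at day 21, and 8.65, 13.8 and 11.01 FPKM at day 45. It was 15.7 FPKM at day 100 and 19.0 FPKM at day 200, but 4.20, 4.31 and 6.63 FPKM in the knockout. The floxed livers after Cre were all above day 0, whereas the knockout livers overlapped it. Anxa1 rose by day 21 (0.89 ± 0.22, SE; adjusted p = 0.0283), by day 45 (1.33 ± 0.22; adjusted p = 0.00131) and in the late group (1.94 ± 0.24; adjusted p = 0.000183), and its change in the knockout was 0.32 ± 0.22 (adjusted p = 0.259). The call at day 21 was kept in 11 of 16 alternatives, with adjusted p between 0.0207 and 0.127, and was lost without day 0 replicate A or B, without day 21 replicate B or C, and with quantile normalization. The knockout lay below day 45 by a log2 fold change of -1.01 ± 0.22 (adjusted p = 0.0199), beside 8.23% of all tested genes called lower in this comparison and 1.21% called higher, so that 1 call among 10 genes is near the share of all genes. The call was kept in 9 of 16 alternative analyses, with values between -1.19 and -0.74 and adjusted p between 0.000714 and 0.147. It was lost with centring (-0.79) and with quantile normalization (-0.74), and the median of all tested genes in this comparison was -0.23 as deposited. The ratio of Anxa1 to S100a11, its S100 partner, was 0.433 ± 0.0833 (SD, n = 3) at day 0, 0.396 ± 0.0516 (SD, n = 3) at day 21 (exact permutation p = 0.6), 0.215 ± 0.0666 (SD, n = 3) at day 45 and 0.113 ± 0.128 (SD, n = 3) in the knockout (exact permutation p = 0.1 for day 45 and for the knockout, the smallest possible, and 0.18 adjusted over the 9 tests). The ratio was 0.098 at day 100 and 0.194 at day 200. The knockout livers were at 0.0378, 0.04 and 0.26, and their mean was 0.0389 without replicate C.

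Anxa5, which binds phosphatidylserine and is used as a probe of dying cells, was the most abundant annexin of the 4. It ranged from 52.2 to 58.0 FPKM at day 0, from 72.04 to 90.5 FPKM at day 21, from 128 to 262 FPKM at day 45 and from 313 to 393 FPKM in the late livers, where its mean passed that of S100a10. In the knockout it was at 202, 207 and 79.7 FPKM. It rose at day 45 (1.77 ± 0.34, SE; adjusted p = 0.00274), in the late group (2.63 ± 0.38; adjusted p = 0.000393) and in the knockout (1.40 ± 0.34; adjusted p = 0.00958). The call in the knockout was lost in 2 of 16 alternatives, among them the one without knockout replicate B (1.17). Anxa3, an annexin of neutrophils and endothelium, went from 3.22 to 4.05 FPKM at day 0 to 6.65 to 7.10 FPKM at day 21, 10.3 to 18.3 FPKM at day 45, and 19.1 and 19.8 FPKM in the late livers. Its rise passed at day 45 (1.70 ± 0.22; adjusted p = 0.000466), in the late group (2.13 ± 0.24; adjusted p = 0.000116) and in the knockout (1.04 ± 0.22; adjusted p = 0.00491), and at day 21 it was 0.75 ± 0.22 (adjusted p = 0.0549).

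S100a8 and S100a9, the subunits of calprotectin, were both called higher from day 21 on and varied widely between mice. S100a8 was at 4.46, 2.07 and 9.41 FPKM at day 0, at 20.8, 20.9 and 69.3 FPKM at day 21, and at 21.0, 35.3 and 44.6 FPKM at day 45. It was at 52.7 FPKM at day 100, 104 FPKM at day 200, and 89.6, 75.0 and 14.9 FPKM in the knockout. Each group lay above day 0 without overlap, although the SD within a group reached 39.6 FPKM around a mean of 59.8 FPKM in the knockout. The log2 fold changes of S100a8 were 2.53 ± 0.68 (SE) at day 21 (adjusted p = 0.0405), 2.57 ± 0.68 at day 45 (adjusted p = 0.0141), 3.75 ± 0.76 in the late group (adjusted p = 0.00263) and 3.10 ± 0.68 in the knockout (adjusted p = 0.00604). The call at day 45 was lost without day 0 replicate B, day 45 replicate B or day 45 replicate C, with adjusted p of up to 0.0627. The call at day 21 stood in 6 of 16 alternatives, with adjusted p from 0.0304 to 0.17.

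S100a9 followed S100a8 in every liver, with a Pearson correlation of 0.99 on the log2 scale over the 14 livers, and of 0.99 also for the deviations of livers from their own group. These correlations are a description, as the livers share groups and the genes share the libraries. S100a9 ranged from 2.07 to 8.27 FPKM at day 0 and from 14.3 to 75.5 FPKM in all other livers. It rose by 2.45 ± 0.56 (SE) at day 21 (adjusted p = 0.0209, kept in 12 of 16 alternatives), by 2.38 ± 0.56 at day 45 (adjusted p = 0.0077), by 3.50 ± 0.62 in the late group (adjusted p = 0.00125) and by 2.67 ± 0.56 in the knockout (adjusted p = 0.00485). The ratio of S100a8 to S100a9 was 1.06 ± 0.0717 (SD, n = 3) at day 0 and 1.45 ± 0.355 (SD, n = 3) in the knockout, where 2 livers were at 1.67 and 1.65 and replicate C at 1.04 (exact permutation p = 0.3).

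**Figure D2:**
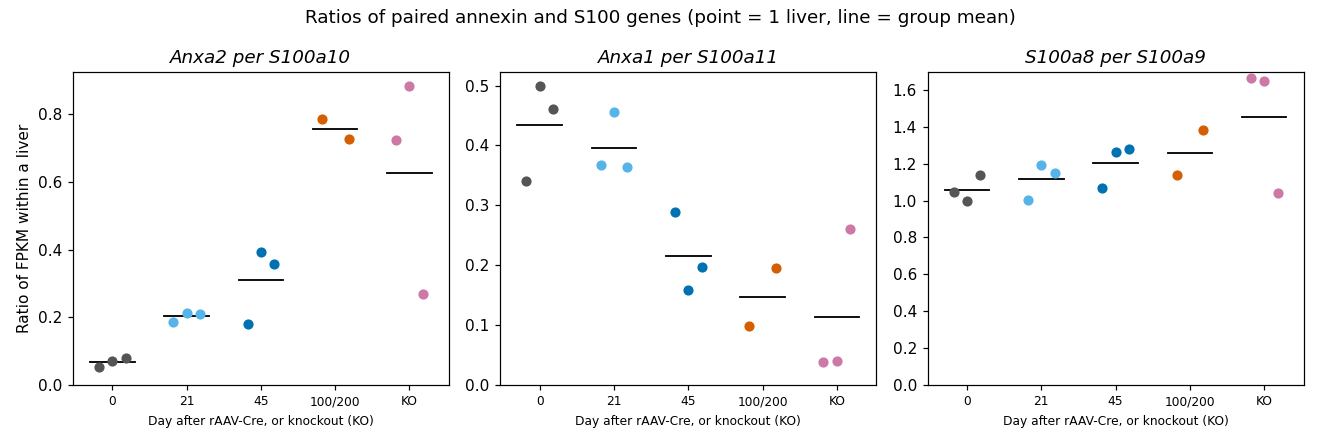
Ratio of FPKM within each liver for Anxa2 per S100a10, Anxa1 per S100a11 and S100a8 per S100a9; each point is 1 liver, each line a group mean, and the axes start at 0. The first ratio is higher in every liver after Cre and in the knockout than at day 0, the second has a mean of 0.433 at day 0 and 0.215 at day 45, and the third lies between 0.996 and 1.67.

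S100a4, a regulator of non-muscle myosin found in fibroblasts and in leukocytes, was the lowest of the 10 genes at day 0. Its level was 2.93, 0.654 and 2.26 FPKM at day 0, 11.7, 10.3 and 25.9 FPKM at day 21, and 14.1, 17.4 and 20.3 FPKM at day 45. It was 24.5 FPKM at day 100, 28.6 FPKM at day 200, and 26.9, 19.2 and 8.59 FPKM in the knockout. S100a4 had the lowest adjusted p of the 10 genes at day 21, with a rise of 2.51 ± 0.43 (SE; adjusted p = 0.00583), a call kept in all 16 alternatives. It was 2.71 ± 0.43 above day 0 at day 45 (adjusted p = 0.00112), 3.31 ± 0.48 in the late group (adjusted p = 0.000385) and 2.67 ± 0.43 in the knockout (adjusted p = 0.00115). Between day 21 and day 45 it changed by 0.20 ± 0.43 (95% interval -0.72 to 1.13, adjusted p = 0.894).

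S100a6, or calcyclin, which is found in proliferating and in biliary cells, and S100a11 were called higher at day 45 but not at day 21. S100a6 ranged from 2.60 to 8.29 FPKM at day 0 and from 6.89 to 14.9 FPKM at day 21, which overlapped, then from 12.2 to 24.7 FPKM at day 45, and was at 31.7 and 47.6 FPKM in the late livers. Its log2 fold changes were 0.89 ± 0.48 (SE) at day 21 (adjusted p = 0.321), 1.80 ± 0.48 at day 45 (adjusted p = 0.0153), 2.79 ± 0.54 in the late group (adjusted p = 0.00204) and 2.19 ± 0.48 in the knockout (adjusted p = 0.00639). At day 45 the call was lost without day 0 replicate B, day 45 replicate B or day 45 replicate C, with adjusted p of up to 0.0685. The call in the knockout was lost in a fit of both groups alone (adjusted p = 0.0503). S100a11 was at 11.4, 6.28 and 9.50 FPKM at day 0, at 18.0, 15.4 and 28.3 FPKM at day 21, and at 30.0, 86.9 and 55.8 FPKM at day 45, followed by 160 and 97.6 FPKM at days 100 and 200. The knockout livers held 111, 108 and 25.5 FPKM. Every group was above day 0, and S100a11 rose by 2.45 ± 0.52 at day 45 (adjusted p = 0.0049), 3.68 ± 0.59 in the late group (adjusted p = 0.000648) and 2.80 ± 0.52 in the knockout (adjusted p = 0.00277), while at day 21 it was 1.09 ± 0.52 (adjusted p = 0.256).

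Counted together, 4 of the 10 genes were called higher at day 21 and none lower, beside 6.2% of all tested genes called higher and 1.42% called lower. That count was 1 without day 0 replicate A, day 0 replicate B or day 21 replicate C, beside 312, 253 and 243 of all tested genes called. It was 2 without day 21 replicate B, beside 379, and 8 in a fit of both groups alone, beside 1774. As reported, 865 of all tested genes were called. At day 45, 9 were called higher, beside 23.7% of all genes, and none lower, beside 2.99%. In the late group 9 were called higher, beside 28.4%, and none lower, beside 3.21%. In the knockout 8 were called higher, beside 19.3%, and none lower, beside 14.5%. The median log2 fold change of the 10 genes was 0.90 at day 21, 2.01 at day 45, 3.05 in the late group and 2.43 in the knockout, against 0.06, 0.20, 0.31 and 0.02 over all tested genes. The 4 comparisons share the day 0 livers and are not independent of each other. Because the median of all genes moved by up to 0.31, the analysis was repeated with each liver centred on its median and with quantile normalization: the number of the 10 genes called at day 45, in the late group and in the knockout stayed at 9, 9 and 8, and at day 21 it was 3 and 2. Of all tested genes, these settings called 2439 and 2012 at day 45 and 2778 and 2586 in the late group. They called 4125 and 3928 in the knockout and 780 and 531 at day 21. The share of calls over all genes that were higher went from 88.8% to 67.4% and 54.5% at day 45, from 89.8% to 64.3% and 49.5% in the late group, from 81.4% to 75.5% and 66.7% at day 21, from 57.2% to 52.7% and 45.3% in the knockout, and from 12.8% to 45.9% and 54.9% between knockout and day 45.

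**Figure D3:**
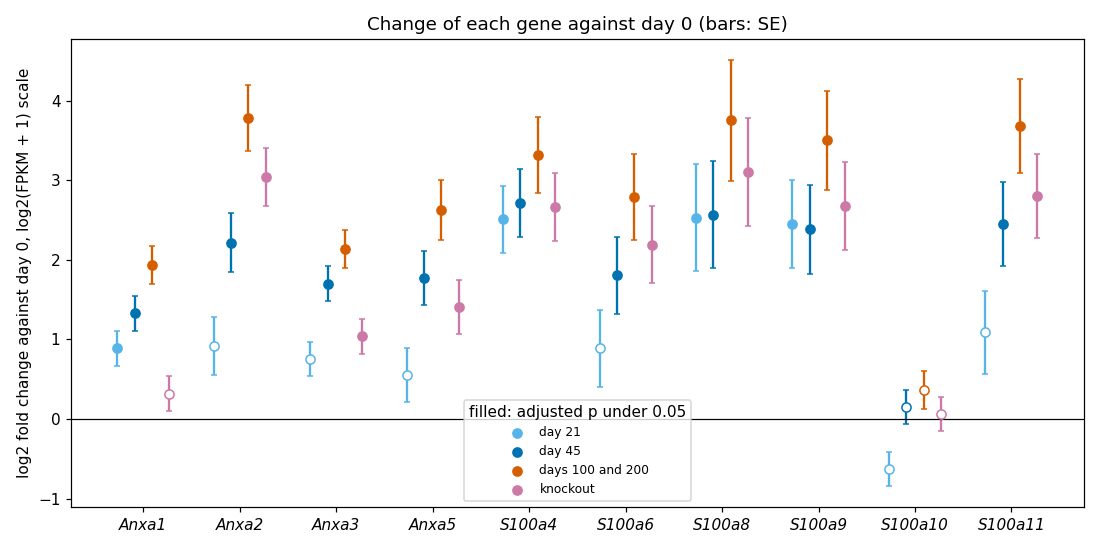
Log2 fold change against day 0 of the 10 genes on the log2(FPKM + 1) scale, with bars for the SE; filled points passed an adjusted p of 0.05 and open points did not. The 4 filled points of day 21 belong to Anxa1, S100a4, S100a8 and S100a9, and S100a10 has open points at every time and in the knockout.

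All livers of day 21 were above all those of day 0 in 8 of the 10 genes, beside 25.2% of all tested genes, and below in 1, S100a10, beside 13.1%. At day 45, 9 were above without overlap, beside 40.5%, and none below, beside 9.37%. In the late group 9 were above, beside 52.9%, and none below, beside 11.6%. In the knockout 8 were above, beside 21.1%, and none below, beside 13.3%.

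Between day 21 and day 45, limma called none of the 10 genes, beside 0.273% of all genes called higher and 0.0% lower. Of the 10 genes, 5 had an unadjusted p under 0.05 and 9 had a positive change, where the median change of all tested genes was 0.15. No share of all genes is given for these counts. Anxa3 came nearest to a call, at 0.94 ± 0.22 (SE; adjusted p = 0.0948), and it passed without day 45 replicate A (1.16). The values nearest to 0 were those of S100a8 (0.04 ± 0.68) and S100a9 (-0.07 ± 0.56). Between day 45 and the late group, none was called either, beside 0.194% of all genes called higher and 0.0264% called lower. All 10 changes were positive and 3 had an unadjusted p under 0.05, where the median change of all tested genes was 0.11. For these counts, too, no share of all genes is given.

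Between the knockout and day 45, 1 of the 10 genes, Anxa1, was called lower, beside 8.23% of all genes called lower and 1.21% called higher. None was called without day 45 replicate B or C or without knockout replicate A or B, beside 239, 288, 262 and 231 of all tested genes. Without knockout replicate C 3 were called, of which Anxa2 (1.30) and S100a11 (1.04) were higher in the knockout and Anxa1 (-1.19) was lower, beside 5922 of all 11354 tested genes called in either direction in that fit. Without day 45 replicate A 2 were called, Anxa1 and Anxa3 (-0.87), both lower in the knockout, beside 422 of all tested genes.

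The livers of a group differed from each other in the 10 genes as a set. Knockout replicate C was below its group mean in 8 of 10 genes, with a median deviation of -0.92 on the log2 scale, while over all tested genes its median deviation was 0.01. Day 21 replicate C was above its group mean in all 10 (median 0.42) and day 21 replicate B below in all 10 (median -0.31). Day 45 replicate B was above in all 10 (median 0.28), day 0 replicate B below in 9 (median -0.37) and day 45 replicate A below in 9 (median -0.47). Over all tested genes the median deviation of a liver lay between -0.071 and 0.089, the highest in day 45 replicate B. Over the 36 pairs of genes without S100a10, the correlation of these deviations over the 14 livers had a median of 0.73 and ran from -0.13 to 0.99, and for the 9 pairs with S100a10 its median was 0.13. Without knockout replicate C these medians were 0.71 and 0.22, over 13 livers. Over the 14 livers the lowest values involved Anxa1, whose deviations in the knockout ran opposite to those of most other genes. The marker sums described below also differed within groups. In knockout replicate C the macrophage and monocyte sum was 259 FPKM, against 706 and 523 FPKM in A and B. The stellate cell and fibroblast sum there was 330 FPKM, against 227 and 268 FPKM. In day 21 replicate C the macrophage and monocyte sum was 602 FPKM, against 471 and 491 FPKM. The endothelial sum there was 80.7 FPKM, against 106 and 96.7 FPKM. Their part in these deviations was not tested.

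**Figure D4:**
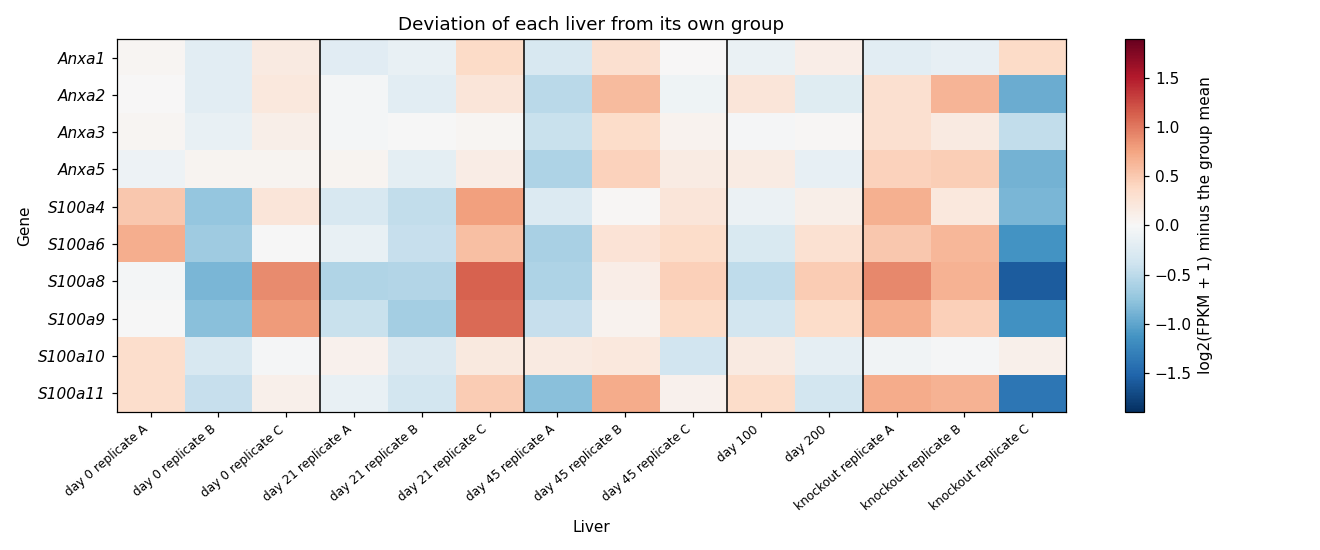
Deviation of each liver from the mean of its own group in log2(FPKM + 1), for the 10 genes (rows) and the 14 livers (columns, vertical lines between groups). Knockout replicate C is below its group in 8 genes and above in Anxa1 and S100a10, and day 21 replicate C is above in all 10.

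In whole liver tissue, a higher level of a gene can come from more cells of a type or from more RNA per cell, and these cannot be told apart. Markers of other cell types were counted beside the 10 genes, and their calls at day 45 stand beside 23.7% of all tested genes called higher and 2.99% called lower. Of the macrophage and monocyte markers, 11 of 11 were called higher at day 45, with a summed level of 192 to 333 FPKM at day 0, 676 to 795 FPKM at day 45 and 259 to 706 FPKM in the knockout, where 7 of 11 were called higher. Of the cholangiocyte markers 7 of 7 tested were called higher at day 45, with sums of 46.6 to 60.1 FPKM at day 0, 411 to 1355 FPKM at day 45, 1942 to 2944 FPKM in the late livers and 559 to 835 FPKM in the knockout, where 7 of 7 were called higher. Their part in the changes of the annexin and S100 genes was not tested.

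Of the stellate cell and fibroblast markers 10 of 10 were called higher at day 45 (sums of 145 to 197 FPKM at day 0 and 410 to 688 FPKM at day 45), of the lymphocyte markers 6 of 7 tested (3.49 to 6.94 FPKM and 16.6 to 24.2 FPKM), of the endothelial markers 3 of 7 (36.4 to 73.5 FPKM and 98.0 to 124 FPKM), of the mesothelial markers 1 of 3 tested (56.1 to 89.0 FPKM and 215 to 240 FPKM) and of the proliferation genes 4 of 4 tested (1.45 to 6.30 FPKM and 10.8 to 20.5 FPKM). Of the hepatocyte markers 1 of 9 tested was called lower and none higher (26606 to 29416 FPKM and 19948 to 26388 FPKM). At day 21 the sums were 471 to 602 FPKM for macrophage and monocyte markers and 139 to 205 FPKM for cholangiocyte markers. They were 312 to 319 FPKM for stellate cell and fibroblast, 21.8 to 46.6 FPKM for lymphocyte and 80.7 to 106 FPKM for endothelial markers. Those of mesothelial, proliferation and hepatocyte lists were 70.7 to 129, 6.02 to 10.9 and 25301 to 25968 FPKM. In the knockout, where 19.3% of all tested genes were called higher and 14.5% lower, 7 of 10 stellate cell and fibroblast markers were called higher (sums of 227 to 330 FPKM), 3 of 7 lymphocyte markers (7.69 to 22.4 FPKM), 1 of 3 mesothelial markers (149.8 to 454 FPKM), 1 of 4 proliferation genes (3.64 to 13.2 FPKM) and 1 of 9 hepatocyte markers (24465 to 32556 FPKM). The latter was Serpina1a, listed at 0 at day 0 and at 1286 to 2036 FPKM in the knockout, so that its call and its part of the sum may rest on failed estimates. Of the 7 endothelial markers 1 was called higher and 1 lower there, and their sum, 60.1 to 66.4 FPKM, lay within the range of day 0. No other marker than Alb was at 0 in every liver.

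For S100a8 and S100a9 the neutrophil markers are the closest comparison. Of 10 neutrophil markers, 5 were tested, and 2 were called higher at day 45, beside 23.7% of all tested genes. Camp and Ngp passed the filter on low values only through the knockout livers, where they are highest, so no count of calls is given for the knockout. Their sum was 3.26 to 16.2 FPKM at day 0, 155 to 544 FPKM at day 45 and 541 to 2135 FPKM in the knockout, almost all of it Lcn2, with means of 10.0, 325 and 1524 FPKM; Lcn2 is also made by stressed hepatocytes. The sum of the other 9, a split chosen after the values were seen, was 0.991 to 2.89 FPKM at day 0, 6.89 to 14.5 FPKM at day 21, 6.14 to 9.25 FPKM at day 45, 13.1 to 22.0 FPKM in the late livers and 4.93 to 43.1 FPKM in the knockout. Csf3r, the receptor for granulocyte colony-stimulating factor, was called higher than day 0 at day 21 (1.13, adjusted p = 0.0365), at day 45 (1.44, adjusted p = 0.00385), in the late group (1.58, adjusted p = 0.00311) and in the knockout (1.14, adjusted p = 0.013). Retnlg reached 23.5 FPKM in the knockout (2.86, adjusted p = 0.00802) and was also called in the late group (2.42, adjusted p = 0.0254). Mpo did not exceed 0.272 FPKM and Elane did not exceed 0.829 FPKM in any liver. Camp reached 7.18 FPKM and Ngp 6.58 FPKM. The remaining markers, Cxcr2, Mmp8 and Ltf, had low means of 0.06, 0.035 and 0.0227 FPKM at day 0. Their means were 0.628, 0.24 and 0.135 FPKM at day 45 and 0.525, 0.588 and 0.712 FPKM in the knockout. The part of neutrophils in the rise of S100a8 and S100a9 was not tested.

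Along the S100 cluster of chromosome 3, which spans 185 kb from S100a1 to S100a9 in the table, 4 genes were called higher and 1 lower at day 45, beside 23.7% and 2.99% of all tested genes. S100a1, a calcium sensor of muscle at the first end of the cluster, was the only tested S100 gene called lower at day 45, from a mean of 220 FPKM at day 0 to 122 FPKM (-0.85 ± 0.24, SE; adjusted p = 0.0212). It was also called lower in the late group (-0.81, adjusted p = 0.0379) and was not called at day 21 (adjusted p = 0.0644) or in the knockout (adjusted p = 0.0851). The nearest tested genes S100a13 (-0.54 ± 0.23; adjusted p = 0.112) and S100a16 (0.18 ± 0.28; adjusted p = 0.712) were not called. S100a4, S100a6, S100a8 and S100a9 stand at the other end and were all called higher. The remaining S100 genes of the cluster, S100a3, S100a5, S100a7a and S100a14, were below the limit for testing, with group means of at most 0.926 FPKM.

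**Figure D5:**
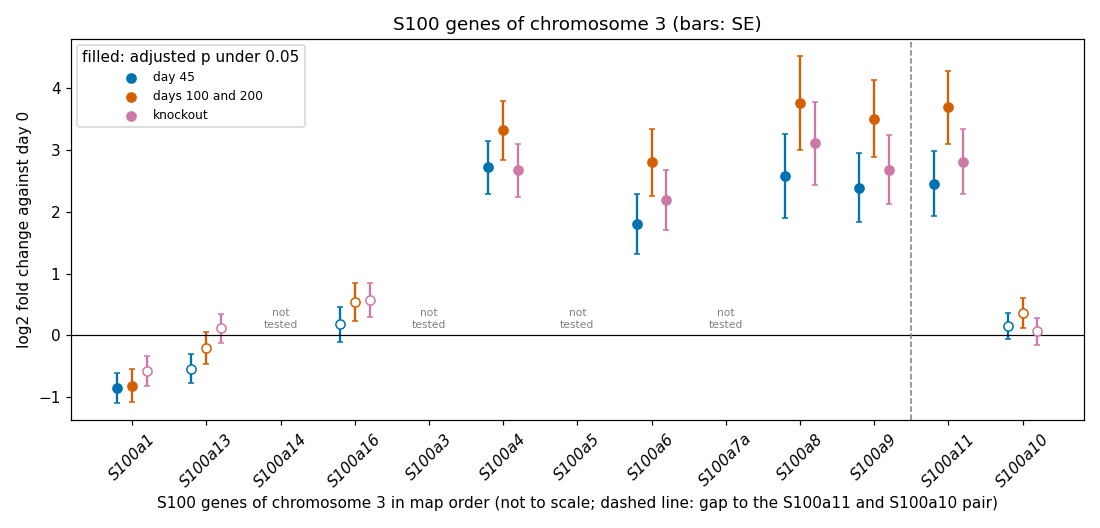
Log2 fold change against day 0 (bars: SE) of the S100 genes of chromosome 3 in map order, not to scale, at day 45, in the late group and in the knockout; filled points passed an adjusted p of 0.05. S100a4, S100a6, S100a8, S100a9 and S100a11 lie above 1.5 in all 3 comparisons, S100a1 lies below 0, and S100a10, next to S100a11, lies between 0.07 and 0.36.

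S100a10 and S100a11 are neighbours as well, and at day 45 S100a11 rose by 2.45 while the value of S100a10 was 0.15. S100z was listed at 0 in every liver. Of the other S100 genes in the table, 3 of 10 were tested, and of these 0 were called higher and 1 lower at day 45, beside 23.7% and 2.99% of all tested genes, with a median of -0.54.

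Of the other annexins 6 of 8 were tested, and 3 were called higher at day 45, beside 23.7% of all tested genes, with a median of 0.72 against 0.20 over all. Anxa13, an annexin of polarised epithelia, had a mean of 0.819 FPKM at day 0, 1.78 FPKM at day 21, 8.95 FPKM at day 45, 32.7 FPKM in the late group and 10.4 FPKM in the knockout, and rose by 2.38 ± 0.26 (SE) at day 45 (adjusted p = 0.000182). It was also called between day 21 and day 45 (1.76 ± 0.26; adjusted p = 0.0263) and between day 45 and the late group (1.83 ± 0.29; adjusted p = 0.0266). Anxa9 rose by 1.53 ± 0.29 (adjusted p = 0.00261) and Anxa7 by 0.91 ± 0.19 (adjusted p = 0.00386). The row of Anxa9 overlaps that of Fam63a, so that its reads may be shared.

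Of 14 partners and receptors of these proteins, 12 were tested, and 5 were called higher and 1 lower at day 45, beside 23.7% and 2.99% of all tested genes. Anxa2 with S100a10 is known as a cell surface receptor for tissue plasminogen activator and plasminogen. Plat, which encodes the activator, rose by 2.203 ± 0.46 (SE; adjusted p = 0.00432), from a mean of 0.388 FPKM at day 0 to 6.54 FPKM at day 45 and 23.1 FPKM in the late group, and Plg, which encodes plasminogen and is made by hepatocytes, fell by 0.84 on the log2 scale (adjusted p = 0.00276), from 1316 to 735 FPKM. Tgm2, a transglutaminase, rose by 1.81 ± 0.40 (adjusted p = 0.00577), Myh9, the non-muscle myosin heavy chain bound by S100a4, by 1.37 (adjusted p = 0.0101), and Pla2g4a, the cytosolic phospholipase A2 that annexins inhibit, by 0.98 (adjusted p = 0.0068). In the late group 7 of the 12 were called higher and 1 lower, beside 28.4% and 3.21% of all tested genes. In the knockout 4 were called higher and 2 lower, beside 19.3% and 14.5%.

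Over all 14 livers the genes of most similar pattern differed between the 10 genes. By Pearson correlation of log2(FPKM + 1), the 3 genes nearest to Anxa2 were Pygb (0.99), Mfap4 (0.99) and 1200009I06Rik (0.99), and those nearest to Anxa1 were Aim2 (0.98), Arhgap15 (0.98) and Btla (0.98). For S100a8 they were Itgb7 (0.99), H2-Aa (0.97) and Lsp1 (0.97), and for S100a9 Lck (0.98), Cd52 (0.98) and Itgb7 (0.97). For S100a4 they were Arhgap9 (0.98), Fxyd5 (0.98) and Arhgdib (0.98), and for S100a11 Tnip1 (0.99), Cx3cl1 (0.99) and Ltb (0.99). S100a10 had no gene as close, the nearest being Rpl31 (0.86), Stat5a (0.86) and Mdp1 (0.84). Anxa3 was nearest to Ecscr (0.99), Ccdc80 (0.98) and Rab31 (0.98), Anxa5 to 2310046K01Rik (0.98), Vill (0.98) and Cacnb3 (0.98), and S100a6 to 1110051M20Rik (0.97), Mmp23 (0.97) and Ldb1 (0.97). These are descriptions over libraries that share groups and depth.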

How the data were processed

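Each of the 14 RNA-seq libraries is 1 liver of 1 mouse, grouped by its label. Per the methods of the study, poly-A RNA was sequenced in pairs and placed on mm9 with TopHat, and the authors deposited FPKM from Cufflinks 2.2.1 with upper quartile scaling, without ribosomal, small nucleolar and mitochondrial sequences. Whether counting used strand is not given in the sources used here. Small RNA reads were aligned by the authors with Bowtie 0.12.7 and deposited as RPM with 1 added, which was removed before miR-122 was divided by the sum of all microRNAs. FPKM hold no fragment numbers, so the authors' Cuffdiff test could not be repeated, and relative depth was read from the ratio of values under 0.1 FPKM between libraries. The table also holds 3 columns of values that belong to no sample used here, and they were not used.

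Rows of the 224 symbols with several rows were summed. limma 3.58.1 in R 4.3.3 (lmFit, contrasts, eBayes with trend, two-sided) was run on log2(FPKM + 1) in a single model of 5 groups. It held the 11354 genes whose average over the livers reached 1 FPKM, with p-values adjusted by Benjamini-Hochberg over all genes within a comparison and a threshold of 0.05. The script was tested on simulated data. Differences between libraries of a group may be biological or technical. The p-values set a difference between groups against that spread, estimated over all 5 groups. In the late group the spread also holds the difference between day 100 and day 200. Alternatives were another pseudocount (0.1), a filter of 5 FPKM and none, centring, quantile normalization, no trend, the highest row of a symbol, 2 groups alone, a replicate block, each liver left out and, added after the data were seen, 12 livers alone and correlations and ratios without knockout replicate C. The genes and lists were chosen with earlier results of these data known. All 10 genes are named, with up to 5 called at day 45 from each of the lists of other annexins, other S100 genes and partners, any gene of these at 0 in every liver, and for each gene the 3 nearest in correlation. Marker lists are given by counts and sums. The single markers, S100a3, S100a5, S100a7a, S100a13, S100a14 and S100a16 were named after their values were seen. Promoters come from RefSeq. Ratios were compared by exact permutation in scipy 1.17.1, run with Python 3.11.15 and pandas 2.3.3.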

Additional observations from a re-analysis of the deposited data

Results flagged for a closer look

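Anxa1 differed between the knockout and day 45 by a log2 fold change of -1.01 (adjusted p = 0.0199, limma over all tested genes), with 8.65, 13.8 and 11.01 FPKM at day 45 and 4.20, 4.31 and 6.63 FPKM in the knockout. It was singled out because the difference between both kinds of miR-122 loss, each set against the same day 0 livers, passed its own test. In this comparison 8.23% of all tested genes were called lower and 1.21% higher, so that 1 call among the 10 genes is near the share of all genes. The 2 groups did not overlap, and the call was kept in 9 of 16 alternatives. It was lost without day 45 replicate B or C, without knockout replicate A or B, in a fit of both groups alone, with centring (-0.79) and with quantile normalization (-0.74), and the median of all tested genes in this comparison was -0.23, with 12.8% of calls higher as deposited, 45.9% with centring and 54.9% with quantile normalization. The floxed mice had received vector and the knockout mice had not, and age was not given, so these cannot be told apart from the genotype. No group has the 4 or more livers that the check for single outlying livers needs.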

How the results depend on the processing

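The number of the 10 annexin and S100 genes called against day 0 stayed within 1.5 times of the reported value under all alternatives at day 45 (7 to 9), in the late group (9) and in the knockout (6 to 8). At day 21 it was 4 as reported, 2 with quantile normalization, 2 with the replicate block, 8 in a fit of both groups alone, and 1 to 4 with a liver left out (1 without day 0 replicate A, day 0 replicate B or day 21 replicate C). Of all tested genes, the same fits called 865, 531, 470, 1774 and 243 to 643, in that order. Between day 45 and day 21 the number of the 10 genes called was 0 as reported and 0 to 1 with a liver left out, and between the late group and day 45 it stayed at 0. Between knockout and day 45 it was 1 as reported, 0 with centring, quantile normalization or both groups alone, and 0 to 3 with a liver left out. Of all tested genes, these fits called 1072, 405, 475, 63 and 231 to 5922. The cause of these changes was not tested. Where day 100 or day 200 was left out, the lone liver was assumed to vary like the other groups.

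The replicate letters did not pair the livers: the deviations of livers with the same letter correlated at -0.447 to 0.501 over 18 pairs, of which 8 were over 0.1. The replicate block changed no other count of these genes (9 at day 45, 8 in the knockout, 0 and 1 in the remaining pair).

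Small values that were not called changed sign. For S100a10, centring gave -0.083 at day 45 against day 0 and 0.13 for knockout against day 45, and leaving out a liver gave -0.00093 to 0.34 at day 45, -0.088 to 0.23 in the knockout and -0.27 to 0.011 for knockout against day 45. For S100a4, knockout against day 45 was 0.17 with centring, 0.090 with quantile normalization and -0.38 to 0.39 with a liver left out, and day 45 against day 21 was -0.032 to 0.59. For S100a8, day 45 against day 21 was -0.13 with centring, -0.087 with quantile normalization and -0.24 to 0.60 with a liver left out. With a liver left out, S100a9 was -0.39 to 0.47 for day 45 against day 21 and -0.055 to 0.86 for knockout against day 45, S100a11 was -0.042 to 1.04 and Anxa5 was -0.66 to 0.083 for knockout against day 45.

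Over all tested genes, the calls ranged over the alternatives from 243 to 1774 at day 21 (865 as reported), 1477 to 4306 at day 45 (3027), 1626 to 5816 in the late group (3592) and 1109 to 7088 in the knockout (3833), from 0 to 180 for day 45 against day 21 (31), 0 to 228 for the late group against day 45 (25) and 63 to 5922 for knockout against day 45 (1072). With 2 or 3 livers in a group and no fragment numbers, the spread between mice limits these comparisons.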
